A study of Drosophila melanogaster with 10 samples.

Results

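The genes described here are the 35 UDP-glycosyltransferase (Ugt) genes of Drosophila melanogaster, out of 13986 genes in the deposited tables. They were chosen by name, as the rows whose FlyBase identifier has a symbol of Ugt followed by a digit, and all 35 such symbols of the name table were present. UDP-glycosyltransferases are membrane enzymes of the endoplasmic reticulum that join a sugar from a UDP-sugar donor to a small lipophilic molecule. The conjugate is more soluble and can be exported, which is how insects deal with many plant compounds, insecticides, odorants, pigments and hormones. In insects the donor is mostly UDP-glucose, and Ugt genes are best known from fat body, gut, Malpighian tubules and olfactory organs. Oenocytes, the abdominal cells that make cuticular hydrocarbons, hold abundant smooth endoplasmic reticulum and many other enzymes of lipid and foreign-compound metabolism.

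Adult oenocytes of 5 genotypes were dissected from flies that, by the labels, were raised at 25°C and then, once eclosed, held for 7 days at 29°C, and polyadenylated RNA was sequenced in 2 replicate libraries for each genotype. A note to the study's tables instead gives 29°C throughout, and which applies is not settled here. The question was what the zinc-finger factor gene fruitless (fru) does in these cells. Control carried the oenocyte driver prom-E800-Gal4 together with UAS-mCD8-GFP. In 3 genotypes this driver expressed a hairpin against fru, taken from stock VDRC330035 for fru330035, BDSC 31593 for fruTrip and VDRC105005 for fru105005. In fruBOE it expressed UAS-FruCOMB, an overexpression construct. All groups therefore carry the driver, and the GFP transgene is named for control alone. Nothing in the labels says whether the 2 replicates of a genotype came from separate cultures, so p-values measure the spread between these libraries.

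Library totals ran from 23415354 to 46840820 expected counts. The targeted gene fru stood at 2.26 and 2.34 in control, 3.66 and 3.55 in fru330035, 7.29 and 7.32 in fruTrip, 1.60 and 1.62 in fru105005, and 43.5 and 43.3 in fruBOE, in TPM rescaled between libraries by TMM (TMM-scaled TPM, the scale of every level given here). It was thus higher than control under the labels fru330035 and fruTrip and lower under fru105005, and the group names are used below as labels only. From the counts its log2 fold change was 0.57 in fru330035, 1.03 in fruTrip, -0.68 in fru105005 and 4.34 in fruBOE. The study reported that hairpins against fru removed Fru protein staining from oenocytes. It also reported RT-qPCR of fru after knockdown in the whole body. These are other measures than the RNA level given here. The 8 oenocyte markers were at least 1 in all 10 libraries. Their summed level was 59798 and 60170 in control, 13831 and 13786 in fru330035, 73271 to 87477 in fruTrip and fru105005, and 44628 and 44863 in fruBOE, and 6 of 8 were called lower in fru330035 and 8 of 8 in fruBOE. Their median log2 fold change against control was -0.28 in fru330035, 0.08 in fruTrip, 0.36 in fru105005 and -1.36 in fruBOE. The summed level of 28 gut markers was 1458 in replicate 2 of fruTrip and 1133 in replicate 2 of fru105005, against 156 to 530 in the other 8 libraries. Among these 8 it was 156 and 195 in control and 370 and 530 in fruBOE. In fruBOE, 14 of 26 tested gut markers were called higher (31.4% of all genes were) and 0 lower (33.7%). In fru330035, 13 of 26 were called higher (31.7%) and 2 lower (30.6%). The summed level of 13 muscle markers was 1309 and 1317 in control, 1574 to 1757 in fruTrip and fru105005, and 2487 to 2722 in fruBOE and fru330035. In bulk samples such as these, fewer cells of a type and less RNA per cell cannot be told apart.

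The 35 members are protein-coding and fall into 13 subfamilies by the number in the symbol, the largest being subfamily 37 with 8 members and subfamily 35 with 6. In the BDGP6.54 annotation 22 of them lie in 6 tandem clusters with gaps of at most 20000 bases, and 13 lie alone. The largest cluster, on 3R from 11151026 to 11177910, holds 9 members: Ugt302K1, Ugt302E1, Ugt302C1, Ugt35E1, Ugt35E2, Ugt35B1, Ugt35A1, Ugt304A1 and Ugt303A1. Ugt36F1, Ugt36D1 and Ugt36E1 are neighbors on 2L from 18819344 to 18829059, and Ugt37C2, Ugt37E1 and Ugt37D1 on 2L from 16794211 to 16801584. Ugt49B1 and Ugt49C1 adjoin on 2R from 21212880 to 21217779, Ugt37A2 and Ugt37A3 on 3R from 12739642 to 12743680, and Ugt303B3, Ugt303B1 and Ugt303B2 on 3R from 23532945 to 23538908. Levels differed widely within some clusters. In the 36 cluster of control, the mean was 124 for Ugt36D1, 10.8 for Ugt36E1, whose annotated start lies 53 bases past the end of Ugt36D1, and 0.063 for Ugt36F1.

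A few members share exonic bases with another gene on the opposite strand. Whether the counting used strand is not given in the sources used here, so it is not known to which gene of a pair reads within the shared bases were counted. The pairs are Ugt36A1 and CG15418 with 400 shared bases, Ugt49B1 and CG44245 with 90, Ugt36E1 and CG17597 with 48, and Ugt307A1 and Pvf2 with 11. The expected counts of Ugt36A1, Ugt49B1, Ugt37A2 and Ugt37A3 were not whole in some libraries, so those members shared reads with other genes and their levels are uncertain to that extent. Those of Ugt36E1 and Ugt307A1 were whole in every library.

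In control, 1 member was at 100 or above, 5 were from 10 to under 100, 9 from 1 to under 10, and 20 under 1. The 20 low members are 57.1% of the family, whereas 30.8% of all genes were under 1 in control. Ugt36D1 was the highest member in every library and ranked 928 of 13986 genes in control. It was followed by Ugt49B1 with a mean of 39.4, Ugt316A1 with 30.6, Ugt301D1 with 29.0, Ugt37D1 with 15.6 and Ugt36E1 with 10.8. No substrate is named here for these genes. Ugt36E1 is known from olfactory neurons, where it acts in the discrimination of pheromones. Replicates differed little beside these levels: the SD of the control mean was 0.858 for Ugt36D1 and 0.581 for Ugt316A1 (n = 2 each).

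**Figure D1:**
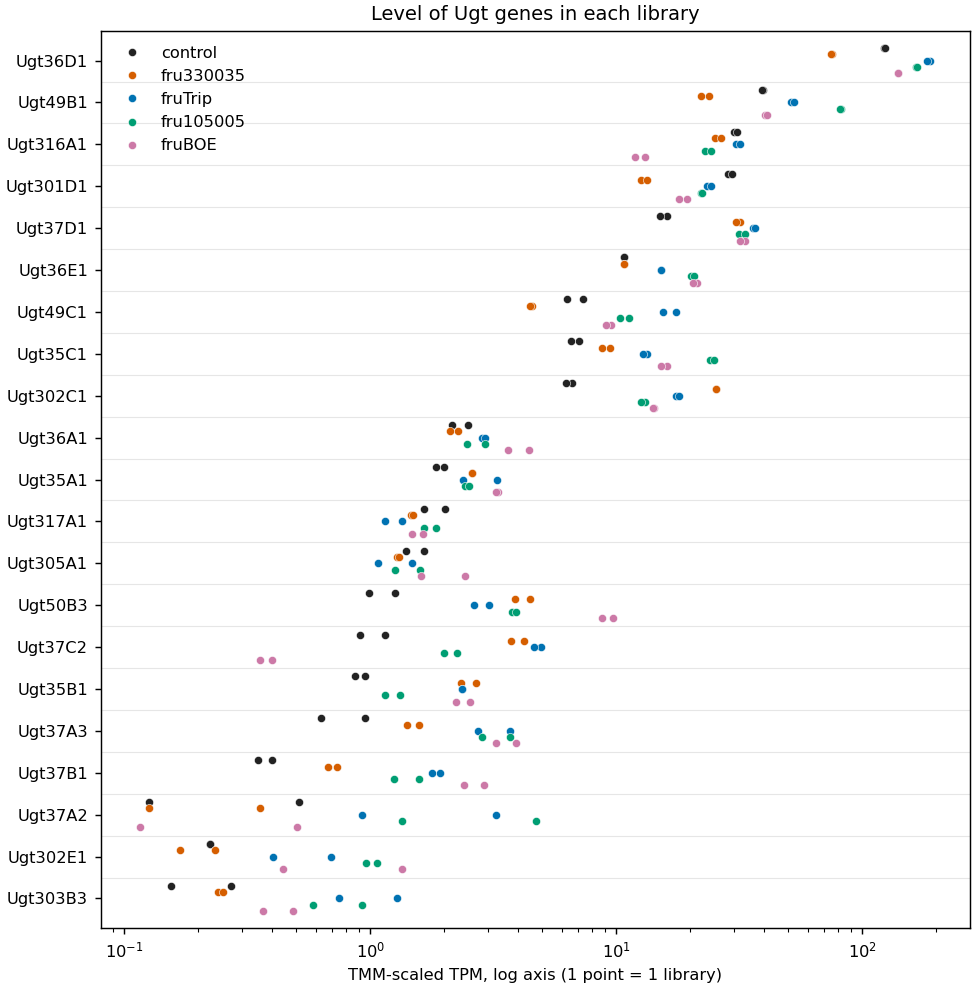
Each point is 1 library, with TMM-scaled TPM on a log axis, for the 21 Ugt genes with a mean of at least 1 in any genotype, ordered by their control mean. Ugt36D1 lies to the right of every other gene, and the paired points of a genotype lie close together except for low genes such as Ugt37A2 and Ugt302E1.

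Summed over the 35 members, the family stood at 282 and 283 in control, 240.4 and 241 in fru330035, 421 and 421 in fruTrip, 421 and 422 in fru105005, and 338 and 336 in fruBOE. The 5 genotypes did not overlap except fruTrip and fru105005, whose libraries were interleaved. Against the control mean this was 0.853 times in fru330035, 1.49 times in fruTrip, 1.49 times in fru105005 and 1.19 times in fruBOE. Without rescaling between libraries, in the deposited TPM, the ratios were 0.924, 1.30, 1.46 and 1.10. Leaving out Ugt36D1, the ratio was 1.04 in fru330035, 1.48 in fruTrip, 1.61 in fru105005 and 1.24 in fruBOE. Ugt36D1 held 43.7% ± 0.264 (SD, n = 2) of the family sum in control and 31.2% ± 0.335 (SD, n = 2) in fru330035. With 2 libraries a group, the smallest two-sided p of an exact permutation test is 0.333, and these sums are given with no test.

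**Figure D2:**
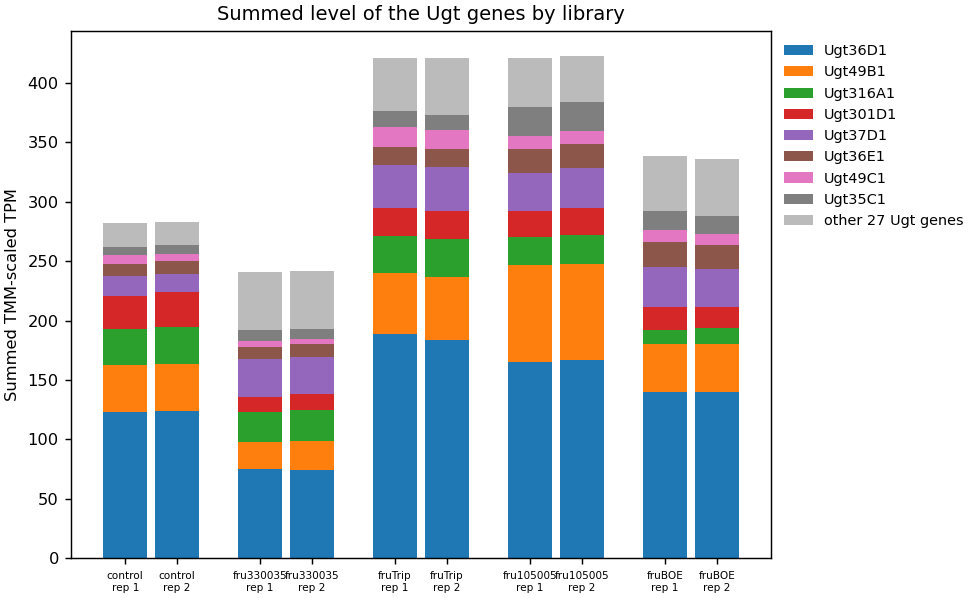
Bars start at 0 and give the summed TMM-scaled TPM of the 35 Ugt genes in each of the 10 libraries, split into the 8 members highest in control and the other 27. The sum is near 282 in control, near 241 in fru330035, near 421 in fruTrip and fru105005, and 336 to 338 in fruBOE, and Ugt36D1 is the largest share of each bar.

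Each genotype was next compared with control, to ask which Ugt genes changed and in which direction. A gene was called when its adjusted p in edgeR's quasi-likelihood test was under 0.05, and a DEG was a gene with an adjusted p of at most 0.001 and a change of at least 4-fold. In fru330035, 10 of 21 tested members rose, beside 31.7% of all genes tested, and 5 fell, beside 30.6%. In fruTrip, 14 of 22 rose, beside 26.0% of all genes, and 1 fell, beside 23.9%. In fru105005, 14 of 23 rose, beside 26.0%, and 2 fell, beside 26.7%. In fruBOE, 13 of 23 rose, beside 31.4%, and 3 fell, beside 33.7%. The share of members that rose was larger than that of all genes in each comparison. The share that fell was clearly smaller in fruTrip, fru105005 and fruBOE. In fru330035 it was 23.8%, near the 30.6% of all genes, and the members that fell there include the highest, Ugt36D1. With DESeq2, 7 of 21 members rose and 5 fell in fru330035. The median log2 fold change of the tested members was 0.22, 1.09, 0.98 and 0.78 in this order, where that of all genes lay between -0.02 and 0.04. An estimated change of at least 2-fold, called or not, was seen for 7 of 21 members in fru330035 (14.1% of all genes), 11 of 22 in fruTrip (10.9%), 10 of 23 in fru105005 (10.3%) and 9 of 23 in fruBOE (18.7%). The DEGs were Ugt302C1 in fru330035 (DEGs with a rise were 1.69% of all genes), Ugt37A3, Ugt37C2 and Ugt37B1 in fruTrip (1.05%), Ugt37A3 and Ugt302E1 in fru105005 (0.619%), and Ugt37A3, Ugt37B1 and Ugt50B3 in fruBOE (1.34%). DEG counts depended on single libraries: fruTrip had 1 without replicate 1 or 2 of control, and fru105005 had 0 without replicate 1 of control or replicate 1 of fru105005. Markers of Malpighian tubules, a tissue rich in Ugt RNA, were low, with a summed level over 7 genes of 10.2 and 10.9 in control and 13.0 to 19.5 in the other libraries. Their median log2 fold change was 1.28 in fru330035, 0.66 in fruTrip, 0.20 in fru105005 and 0.93 in fruBOE. Of 6 tested, 4, 2, 2 and 3 were called higher in the same order and 0 lower. Markers of fat body had a summed level over 5 genes of 1242 and 1239 in control, and 537 and 522 in fru330035. It was 863 and 854 in fruTrip, 1074 and 1067 in fru105005, and 520 and 504 in fruBOE. Their median log2 fold change was -0.32, -0.04, 0.67 and -0.11 in the same order of comparisons. Called higher were 2, 2, 4 and 1 of the 5, and called lower 3, 2, 1 and 3. The part of either tissue in the values of Ugt genes was not tested. All 4 comparisons share the control libraries, so their results are set side by side and not counted as repeats of each other. A member low in control was tested only with enough counts in the other group, which favors rises among such members. Ugt302E1, a DEG in fru105005, had 8 and 10 counts in control and 40 and 38 in fru105005. With 9 and 17 counts in fru330035 it was not tested there. Members under 1 in control are 57.1% of the family, beside 30.8% of all genes. What this adds to the counts and medians was not tested. With scaling by library size alone the median of all genes was 0.21 in fru330035, -0.18 in fruTrip, -0.10 in fru105005 and 0.21 in fruBOE, and changes below are relative to TMM unless stated.

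**Figure D3:**
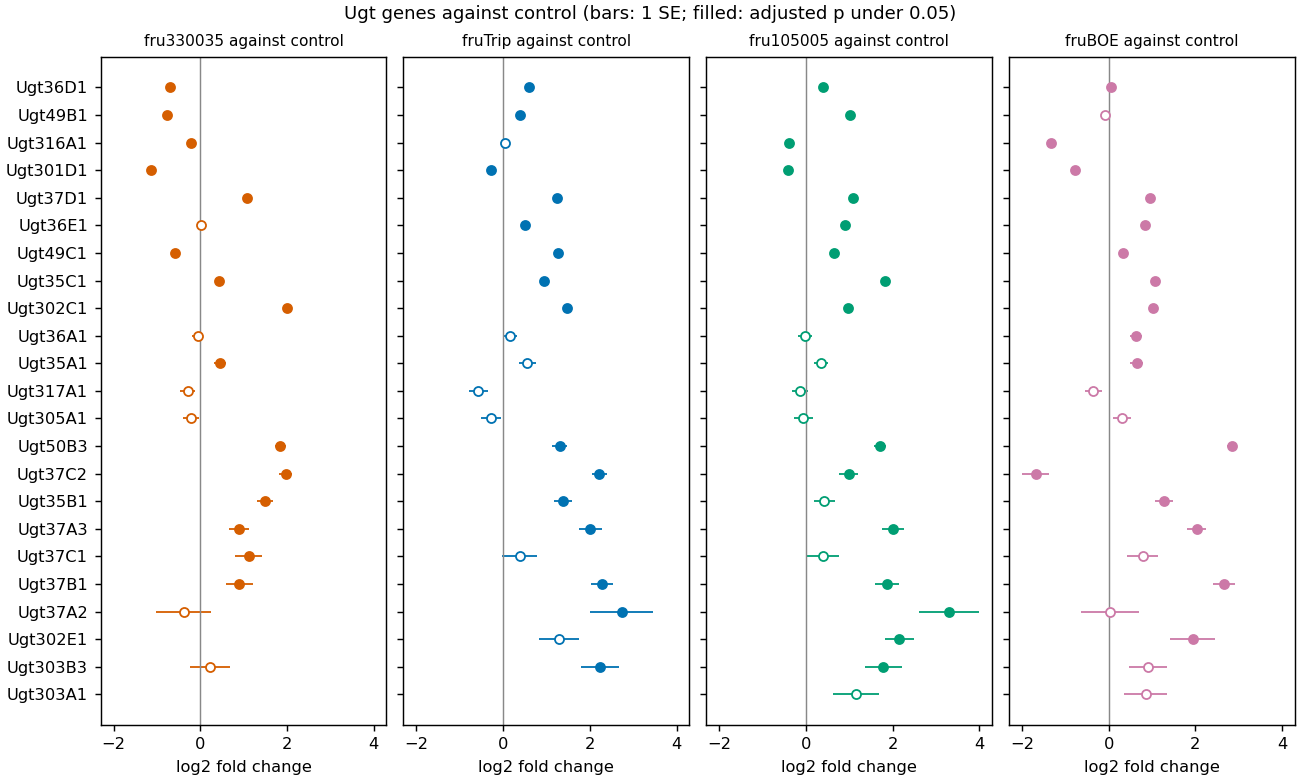
Points are log2 fold changes against control for the 23 Ugt genes tested in any of the 4 comparisons, ordered by control level, with bars of 1 SE. Filled points have an adjusted p under 0.05. Ugt301D1 lies left of 0 in all 4 panels, Ugt302C1, Ugt37D1, Ugt35C1, Ugt50B3, Ugt37A3 and Ugt37B1 lie right of 0, and Ugt36D1, Ugt49B1 and Ugt49C1 lie left of 0 in fru330035 and right of 0 in fruTrip and fru105005.

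The highest member, Ugt36D1, differed in direction between the lines. Its level was 123 and 124 in control, 75.5 and 74.7 in fru330035, 189 and 184 in fruTrip, 165 and 167 in fru105005, and 140.1 and 139.8 in fruBOE. Control lay above fru330035 and below the other 3 genotypes, with no overlap. In fru330035 its log2 level fell by 0.71 (SE 0.024, adjusted p = 5.29e-12, edgeR). It rose in fruTrip by a log2 difference of 0.59 (SE 0.020, adjusted p = 1.58e-07), and in fru105005, with 0.40 (SE 0.019, adjusted p = 4.32e-07). In fruBOE the log2 fold change was 0.06 (SE 0.022, adjusted p = 0.0411), and that call did not hold with any of the 4 libraries left out, where the adjusted p was 0.0952 to 0.271, nor in DESeq2, where it was 0.339.

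The adjoining genes of subfamily 49 also fell in fru330035 and rose in fruTrip and fru105005. Ugt49B1 stood at 39.5 and 39.3 in control, 22.2 and 23.9 in fru330035, 51.6 and 52.6 in fruTrip, 82.1 and 80.9 in fru105005, and 40.2 and 40.9 in fruBOE. The fru330035 libraries were lowest, those of control and fruBOE lay close together, and those of fru105005 were highest. The log2 fold change of Ugt49B1 was -0.76 (SE 0.043, adjusted p = 1.64e-09) in fru330035, 0.40 (SE 0.036, adjusted p = 4.74e-05) in fruTrip and 1.03 (SE 0.029, adjusted p = 1.42e-08) in fru105005. In fruBOE it was -0.08 (SE 0.037, adjusted p = 0.0698), and 0.09 when scaled by library size alone. CG44245, the gene that shares bases with Ugt49B1, was called higher in all 4 comparisons, by 0.95 in fru330035, 0.70 in fruTrip, 0.72 in fru105005 and 1.26 in fruBOE, so the genes of this pair moved in opposite directions in fru330035. What part the shared bases have in the values was not tested.

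Ugt49C1, which shares no exon with another gene in the tables, stood at 7.35 and 6.30 in control, 4.56 and 4.48 in fru330035, 17.5 and 15.4 in fruTrip, 11.3 and 10.3 in fru105005, and 9.55 and 9.12 in fruBOE. Again fru330035 was lowest and no genotype overlapped control. Its log2 fold change was -0.57 (SE 0.10, adjusted p = 0.000142) in fru330035, 1.27 (SE 0.10, adjusted p = 1.66e-05) in fruTrip and 0.64 (SE 0.094, adjusted p = 0.000501) in fru105005. In fruBOE it was 0.33 (SE 0.089, adjusted p = 0.00603), with an adjusted p of 0.0854 without replicate 2 of control and of 0.0661 in DESeq2.

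A fall in all 4 comparisons was seen for Ugt301D1. Its level was 28.3 and 29.6 in control, 12.6 and 13.4 in fru330035, 23.4 and 24.3 in fruTrip, 22.1 and 22.4 in fru105005, and 19.3 and 17.9 in fruBOE. Both control libraries were above the other 8, and both fru330035 libraries below them. In fru330035 its log2 level fell by 1.14 (SE 0.049, adjusted p = 7.36e-11, edgeR). The log2 fold change was -0.28 (SE 0.048, adjusted p = 0.00171) in fruTrip, -0.41 (SE 0.047, adjusted p = 0.000119) in fru105005 and -0.77 (SE 0.051, adjusted p = 5.01e-08) in fruBOE.

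Ugt316A1 fell most in fruBOE. It stood at 30.2 and 31.1 in control, 25.1 and 26.5 in fru330035, 30.7 and 32.0 in fruTrip, 23.0 and 24.4 in fru105005, and 11.9 and 13.1 in fruBOE. Both fruBOE libraries were below the other 8, and those of control and fruTrip were interleaved. On the log2 scale its difference from control was -1.33 (SE 0.047, adjusted p = 1.06e-10) in fruBOE and -0.38 (SE 0.038, adjusted p = 4.06e-05) in fru105005. In fru330035 it was -0.22 (SE 0.034, adjusted p = 6.04e-05), but -0.01 with library size alone (adjusted p = 0.824, edgeR). In fruTrip it was 0.04 (SE 0.038, adjusted p = 0.365), and -0.12 with library size alone.

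The members that rose in all 4 comparisons were Ugt302C1, Ugt37D1, Ugt35C1, Ugt50B3, Ugt37A3 and Ugt37B1, 6 of the 21 tested in all of them. Ugt302C1, also known as Ugt86Da, is the most abundant gene of the 9-member cluster. Its level was 6.60 and 6.23 in control, 25.5 and 25.3 in fru330035, 17.5 and 18.0 in fruTrip, 13.1 and 12.6 in fru105005, and 14.2 and 14.1 in fruBOE. Both control libraries were below the other 8, and the genotypes did not overlap. The rise was 4.00-fold in fru330035 (SE of the log2 value 0.056, adjusted p = 7.4e-13). The log2 difference was 1.46 (SE 0.066, adjusted p = 7.95e-07) in fruTrip, 0.98 (SE 0.069, adjusted p = 5.02e-06) in fru105005 and 1.02 (SE 0.069, adjusted p = 5.72e-08) in fruBOE.

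Ugt37D1 rose in each genotype, by 0.95 to 1.24 on the log2 scale. It stood at 16.1 and 15.1 in control, 31.9 and 30.7 in fru330035, 36.0 and 36.7 in fruTrip, 31.6 and 33.5 in fru105005, and 33.4 and 31.7 in fruBOE. All 8 libraries of the other genotypes were above both of control and lay between 30.7 and 36.7. Its log2 fold change was 1.07 (SE 0.049, adjusted p = 1.54e-10) in fru330035, 1.24 (SE 0.056, adjusted p = 7.81e-07) in fruTrip, 1.08 (SE 0.061, adjusted p = 1.14e-06) in fru105005 and 0.95 (SE 0.055, adjusted p = 1.25e-08) in fruBOE.

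Ugt35C1 is the gene formerly called Ugt86Dd, a member known for its part in resistance to nicotine in this species. Its level was 6.54 and 7.04 in control, 9.45 and 8.73 in fru330035, 13.3 and 12.8 in fruTrip, 24.1 and 25.1 in fru105005, and 16.0 and 15.1 in fruBOE. The fru105005 libraries were highest and no genotype overlapped control. The log2 fold change of Ugt35C1 was 0.42 (SE 0.083, adjusted p = 0.000507) in fru330035, 0.94 (SE 0.078, adjusted p = 2.93e-05) in fruTrip, 1.83 (SE 0.068, adjusted p = 8.6e-08) in fru105005 and 1.07 (SE 0.075, adjusted p = 8.99e-08) in fruBOE.

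Among the tested members, Ugt50B3 had the largest rise in fruBOE. It stood at 0.989 and 1.26 in control, 3.86 and 4.45 in fru330035, 3.03 and 2.65 in fruTrip, 3.77 and 3.91 in fru105005, and 9.72 and 8.77 in fruBOE. The order of the genotypes ran from control through fruTrip to fruBOE, with fru330035 and fru105005 between them and interleaved. Its log2 fold change was 2.84 (SE 0.12, adjusted p = 5.15e-10) in fruBOE, a 7.14-fold change. It was 1.85 (SE 0.13, adjusted p = 2.6e-08) in fru330035, 1.31 (SE 0.17, adjusted p = 0.000413) in fruTrip and 1.71 (SE 0.14, adjusted p = 1.51e-05) in fru105005. The muscle gene TpnC4 lies within an intron of Ugt50B3 and shares no exonic bases with it, and its log2 fold change was -0.47, 0.17, -0.82 and -1.09 in fru330035, fruTrip, fru105005 and fruBOE. The whole list of 13 muscle markers had medians of 0.96, 0.53, 0.14 and 0.84 on the log2 scale in the same order, and its part in the rise of Ugt50B3 was not tested.

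Among the low members of subfamily 37, Ugt37A3 and Ugt37B1 rose in all 4 comparisons. Ugt37A3 stood at 0.630 and 0.951 in control, 1.57 and 1.42 in fru330035, 3.71 and 2.74 in fruTrip, 3.71 and 2.85 in fru105005, and 3.24 and 3.91 in fruBOE. Every library of the other genotypes was above both of control. Its log2 fold change was 0.90 (SE 0.23, adjusted p = 0.00399) in fru330035, 2.01 (SE 0.26, adjusted p = 0.000394) in fruTrip, 2.01 (SE 0.25, adjusted p = 0.000165) in fru105005 and 2.03 (SE 0.22, adjusted p = 4.91e-06) in fruBOE. Ugt37B1 stood at 0.349 and 0.398 in control, 0.729 and 0.676 in fru330035, 1.91 and 1.78 in fruTrip, 1.57 and 1.25 in fru105005, and 2.89 and 2.40 in fruBOE. These values rest on 14 and 20 counts in control and on 102 and 131 in fruBOE, and no genotype overlapped control. Its log2 fold change was 2.28 (SE 0.25, adjusted p = 0.000161) in fruTrip, 1.86 (SE 0.28, adjusted p = 0.000604) in fru105005 and 2.66 (SE 0.25, adjusted p = 1.32e-06) in fruBOE. In fru330035 it was 0.90 (SE 0.31, adjusted p = 0.0214), and the adjusted p was 0.14 in DESeq2, 0.0781 without replicate 1 of control, and 0.104 and 0.0848 without replicate 1 and 2 of fru330035.

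Ugt37C2 rose in the 3 hairpin lines and fell in fruBOE. Its level was 1.14 and 0.912 in control, 4.21 and 3.73 in fru330035, 4.93 and 4.63 in fruTrip, 1.99 and 2.25 in fru105005, and 0.400 and 0.357 in fruBOE, with 47 counts in each control library and 14 and 18 in fruBOE. The fruBOE libraries were below control and all others above it, with no overlap. The log2 fold change was 1.97 (SE 0.15, adjusted p = 6.41e-08) in fru330035, 2.22 (SE 0.17, adjusted p = 2.08e-05) in fruTrip, 0.98 (SE 0.22, adjusted p = 0.00528) in fru105005 and -1.68 (SE 0.32, adjusted p = 0.000546) in fruBOE. Markers of accessory gland and ejaculatory duct had a median log2 fold change of 2.34, 2.14, 0.13 and -2.15 in the same order. Of these markers 8 of 11 rose in fru330035 (31.7% of all genes did) and 2 fell (30.6%). In fruTrip 8 of 11 rose (26.0%) and 1 fell (23.9%). In fru105005 3 of 10 rose, near the 26.0% of all genes, and 0 fell (26.7%). In fruBOE 2 of 10 rose (31.4%) and 8 fell (33.7%). Their summed level over 11 genes was 1009 and 1013 in control, 2620 and 2692 in fru330035, 1401 to 1832 in fruTrip and fru105005, and 3492 and 3443 in fruBOE, with Acp26Aa and Acp76A at 0 in replicate 1 of fruBOE, and their part in the values of Ugt37C2 was not tested. Its downstream neighbor in the cluster, Ugt37E1, had at most 12 counts in any library, and the next gene, Ugt37D1, rose in all 4 comparisons as given above. Ugt36E1, the olfactory member, stood at 10.8 and 10.7 in control, 10.7 and 10.7 in fru330035, 15.2 and 15.2 in fruTrip, 20.1 and 20.6 in fru105005, and 21.3 and 20.6 in fruBOE. Libraries of control and fru330035 were interleaved and the other 6 lay above them. The log2 fold change of Ugt36E1 was 0.49 (SE 0.060, adjusted p = 0.000272) in fruTrip, 0.90 (SE 0.059, adjusted p = 3.3e-06) in fru105005 and 0.83 (SE 0.059, adjusted p = 9.14e-08) in fruBOE. In fru330035 it was 0.01 (SE 0.063, adjusted p = 0.93), and -0.0047 on the log2 scale of the deposited values with a pseudocount of 0.1. CG17597, which shares bases with Ugt36E1, changed by 0.61 in fru330035, -0.27 in fruTrip, -0.18 in fru105005 and 0.48 in fruBOE, so its sign differed from that of Ugt36E1 in fruTrip and fru105005.

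**Figure D4:**
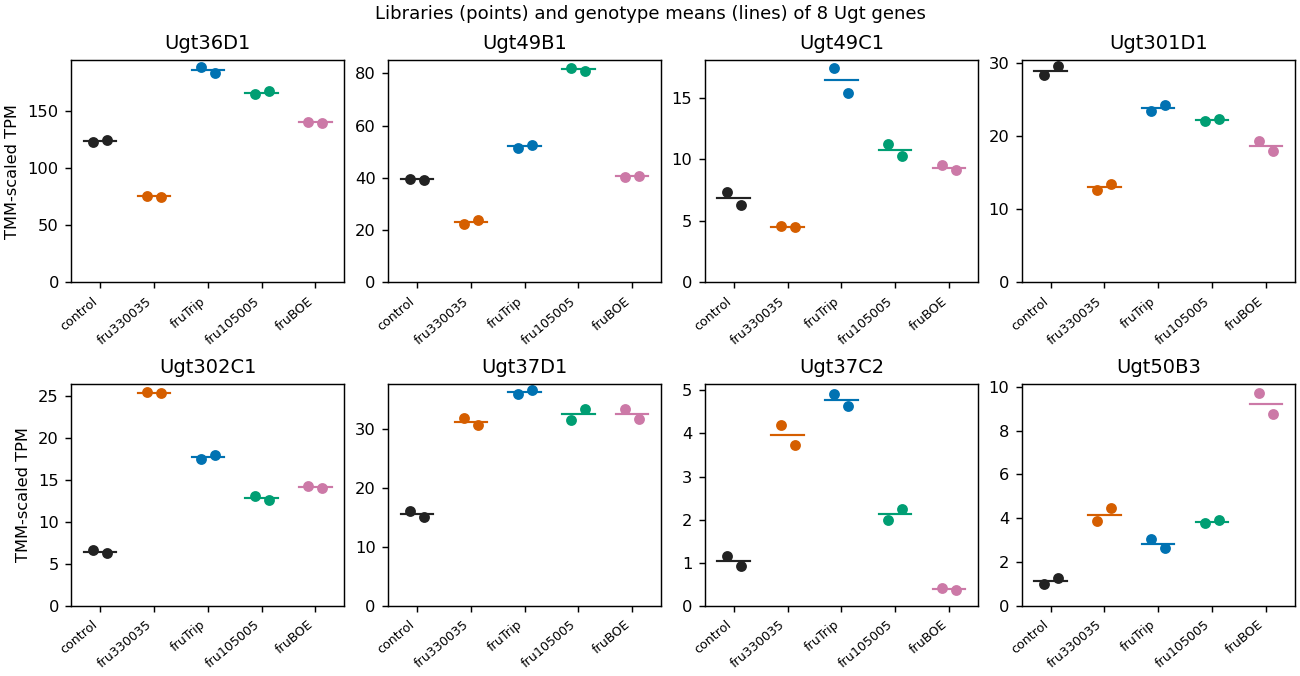
Each panel gives TMM-scaled TPM from 0 for 1 Ugt gene, with 2 points (libraries) and a line (mean) for each of the 5 genotypes. Ugt36D1, Ugt49B1 and Ugt49C1 are lowest in fru330035, Ugt301D1 is highest in control, Ugt302C1 and Ugt37D1 are lowest in control, Ugt37C2 is lowest and Ugt50B3 highest in fruBOE.

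The remaining tested members were low. Ugt35B1, formerly Ugt35b and known from the antenna, rose in fru330035 by a log2 difference of 1.49 (SE 0.18, adjusted p = 6.42e-06), in fruTrip with 1.38 (SE 0.20, adjusted p = 0.000808) and in fruBOE with 1.28 (SE 0.21, adjusted p = 0.000199), and was at 0.42 (SE 0.24, adjusted p = 0.174) in fru105005. Its neighbor Ugt35A1 rose in fru330035 and fruBOE, by 0.45 and 0.65 on the log2 scale. Ugt36A1 rose in fruBOE, by 0.64 (SE 0.14, adjusted p = 0.0018), as did CG15418, with which it shares 400 exonic bases, by 0.66 (adjusted p = 0.0461, edgeR). Ugt37C1 rose in fru330035, by 1.11 (SE 0.32, adjusted p = 0.00784), and Ugt303B3 in fruTrip and fru105005, by 2.23 and 1.78 on the log2 scale, from 11 and 8 counts in control. Ugt303B3 stood at 0.272 and 0.155 in control, 0.745 and 1.28 in fruTrip, and 0.583 and 0.928 in fru105005. It was thus higher in replicate 2 of both lines, where gut marker RNA was also higher, and the part of gut RNA in these calls was not tested. Ugt303A1, Ugt305A1 and Ugt317A1 were called in none of their comparisons with control. Their means lay between 0.0805 and 2.02 over the 5 genotypes, and the log2 fold change of Ugt317A1 in fruTrip, the one nearest the threshold, was -0.57 (SE 0.21, adjusted p = 0.0577).

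The members too low to test in any of the 7 comparisons were 11: Ugt302K1, Ugt303B1, Ugt303B2, Ugt304A1, Ugt307A1, Ugt35D1, Ugt35E1, Ugt35E2, Ugt36F1, Ugt37E1 and Ugt49B2. The highest count of any of them was 21, for Ugt302K1 in replicate 2 of fruBOE, and their counts summed to between 11 and 68 in a library. Ugt307A1, Ugt35E1, Ugt49B2, Ugt303B1 and Ugt35D1 had 0 counts in both control libraries, which allows up to 3 counts in each at this depth. Ugt37A1 entered the comparison of fruTrip with fru105005 alone, with at most 12 counts in a library. The 9-member cluster thus held several of the untested genes beside Ugt302C1, and its control means ran from 0 to 6.42.

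The hairpin lines were then compared with each other, without control, to ask whether the lines differ in Ugt genes. Against fruTrip, 2 of 22 tested members were higher in fru330035 (26.6% of all genes were) and 13 lower (25.1%). Against fru105005, 5 of 23 were higher in fru330035 (28.6% of all genes) and 12 lower (27.9%). Between fruTrip and fru105005, 7 of 24 were higher in fruTrip (18.0%) and 4 lower (18.4%). Ugt36D1 was lower in fru330035 than in fruTrip, at -1.29 (SE 0.022, adjusted p = 1.29e-08), and than in fru105005, at -1.12 (SE 0.020, adjusted p = 2.5e-09). Ugt49C1 was at -1.84 (SE 0.077, adjusted p = 1.1e-06) against fruTrip and -1.24 (SE 0.075, adjusted p = 3.03e-06) against fru105005. Ugt302C1 was at 0.54 (SE 0.043, adjusted p = 3.58e-05) against fruTrip and 1.00 (SE 0.050, adjusted p = 8.76e-07) against fru105005. Ugt37C2 was higher in fru330035 than in fru105005, at 0.96 (SE 0.14, adjusted p = 0.000509), and at -0.25 (SE 0.11, adjusted p = 0.0965) against fruTrip. Ugt35C1 was lower in fruTrip than in fru105005, at -0.90 (SE 0.050, adjusted p = 4.15e-05), and Ugt49B1 at -0.63 (SE 0.031, adjusted p = 2.61e-05), whereas Ugt37C2 was at 1.22 (SE 0.15, adjusted p = 0.00117). Ugt37D1 differed little among the lines, at -0.17 (SE 0.036, adjusted p = 0.00693) between fru330035 and fruTrip, where it was 0.20 with library size alone (under which the median of all genes there was 0.39), and at -0.03 (SE 0.042, adjusted p = 0.578) between fru330035 and fru105005.

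Replicates 1 and 2 were shown apart because gut marker RNA differed between those of fruTrip and fru105005. All 28 gut markers were higher in replicate 2 of fruTrip, with a median log2 difference of 3.05, and 26 of 28 in replicate 2 of fru105005, with a median of 2.85. Ugt genes with at least 50 counts in a replicate differed by a median of -0.05 over 19 members in fruTrip and -0.01 over 19 in fru105005. Ugt36D1, for instance, was 189 in replicate 1 of fruTrip and 184 in replicate 2, and 165 and 167 in fru105005. Among members with at least 50 counts, the one that differed by over 1 on this scale was Ugt37A2, in both lines, as did 2.12% of all such genes in fruTrip and 1.59% in fru105005. Its level was 0.514 and 0.126 in control, 0.356 and 0.126 in fru330035, 0.923 and 3.24 in fruTrip, 4.72 and 1.34 in fru105005, and 0.116 and 0.504 in fruBOE. The counts behind it were 37 and 100 in fruTrip and 212 and 52 in fru105005, so it was higher in replicate 2 of the former and in replicate 1 of the latter. The log2 difference, replicate 2 minus replicate 1, was 1.76 in fruTrip and -1.81 in fru105005, opposite in sign where the gut markers were higher in replicate 2 of both lines. In the other genotypes it had at most 27 counts in a library. Most members below 50 counts were higher in replicate 2 of both lines. Examples are Ugt37A1, at 2.30 in fruTrip and 3.03 in fru105005, and Ugt303A1, at 1.70 and 0.72. The exceptions were Ugt35E2, lower in both, Ugt302K1, Ugt37E1 and Ugt49B2, which differed in sign, and Ugt35D1, lower in fruTrip and at 0 counts in fru105005. The counts of Ugt37A1 were 1 and 9, and 0 and 12. The part of gut RNA in these low members was not tested.

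Ugt37A2 was called higher in fruTrip, at 2.73 (SE 0.73, adjusted p = 0.0158), and in fru105005, at 3.29 (SE 0.70, adjusted p = 0.00411). The call in fruTrip was lost in DESeq2 (adjusted p = 0.0626), in limma with a pseudocount of 1 (0.0794) or 0.1 (0.0595), and without replicate 2 of control (0.113). With 1 library left out its log2 fold change ran from 1.60 to 4.03 in fruTrip and from 2.12 to 4.59 in fru105005. In a fit of all libraries without replicate 2 of both lines, it was 1.61 in fruTrip, with an adjusted p of 0.0675 from edgeR. Ugt302E1 stood at 0.223 and 0.223 in control, 0.169 and 0.234 in fru330035, 0.401 and 0.695 in fruTrip, 0.959 and 1.07 in fru105005, and 0.442 and 1.34 in fruBOE, with 14 and 67 counts in fruBOE. The fruBOE libraries differed by 1.51 on the log2 scale, and those of fru105005 by little. It rose in fru105005, at 2.15 (SE 0.33, adjusted p = 0.000724), and in fruBOE, at 1.94 (SE 0.52, adjusted p = 0.00605), but without replicate 2 of fruBOE the latter was 0.85, with an adjusted p of 0.301. In fruTrip it was 1.28 (SE 0.46, adjusted p = 0.0514), and 1.65, with an adjusted p of 0.0374, without replicate 1 of fruTrip.

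**Figure D5:**
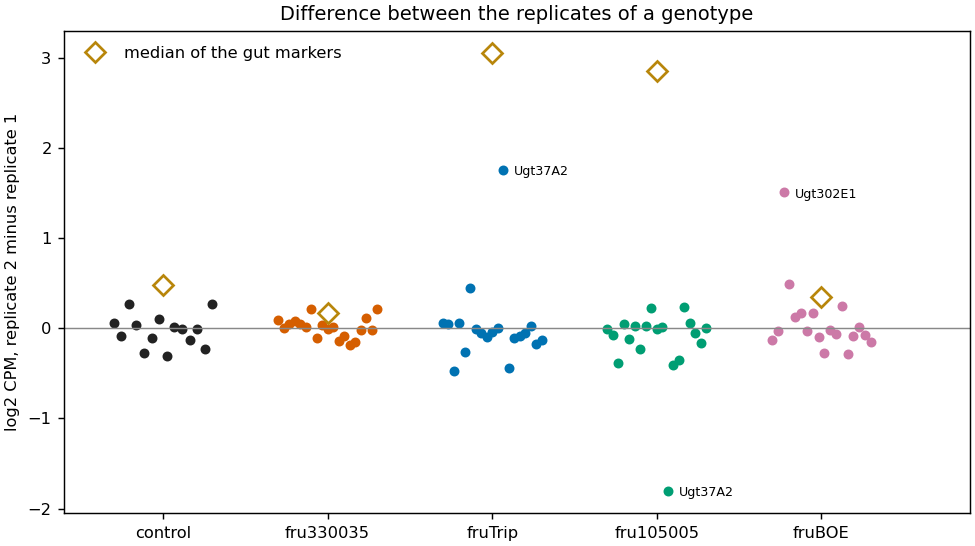
Points are Ugt genes with at least 50 counts in a replicate, and the axis gives log2 CPM in replicate 2 minus replicate 1 of each genotype. Diamonds give the median of the 28 gut markers. The diamonds stand at 3.05 in fruTrip and 2.85 in fru105005 while most Ugt points lie near 0, with Ugt37A2 at 1.76 and -1.81 and Ugt302E1 at 1.51 in fruBOE as the members past 1.

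Conjugation needs a UDP-sugar, so a list of 12 genes for the supply and use of these donors was read from the same fits, and the shares of all genes given above (31.7% higher and 30.6% lower in fru330035, 26.0% and 23.9% in fruTrip, 26.0% and 26.7% in fru105005, 31.4% and 33.7% in fruBOE) are the background of its counts. In fru330035, 3 of the 12 rose and 8 fell, and the median log2 change was -0.23, and in fruTrip 6 rose and 5 fell, with a median of 0.11. In fru105005, 7 rose and 5 fell, with a median of 0.50, and in fruBOE 5 rose and 4 fell, with a median of 0.03. UGP, which makes UDP-glucose, stood at 171 and 174 in control, 127 and 122 in fru330035, 262 and 255 in fruTrip, 350.1 and 343 in fru105005, and 288 and 283 in fruBOE. As with Ugt36D1, the fru330035 libraries were below control and those of the other 3 genotypes above it. The log2 fold change of UGP was -0.48 (SE 0.025, adjusted p = 6.4e-10) in fru330035, 0.56 (SE 0.018, adjusted p = 1.41e-07) in fruTrip, 0.92 (SE 0.022, adjusted p = 5.12e-09) in fru105005 and 0.62 (SE 0.019, adjusted p = 3.76e-11) in fruBOE. Sugarless (sgl), the dehydrogenase that makes UDP-glucuronic acid from UDP-glucose, stood at 12.1 and 11.2 in control, 6.44 and 6.33 in fru330035, 9.31 and 9.69 in fruTrip, 9.13 and 9.13 in fru105005, and 7.28 and 7.33 in fruBOE. Both control libraries were above the other 8. It fell in all 4 comparisons, at -0.85 (SE 0.066, adjusted p = 5.36e-08) in fru330035, -0.30 (SE 0.068, adjusted p = 0.00791) in fruTrip, -0.37 (SE 0.067, adjusted p = 0.00161) in fru105005 and -0.79 (SE 0.068, adjusted p = 5.79e-07) in fruBOE. Pgm1, the phosphoglucomutase that provides glucose 1-phosphate, rose in all 4, by 0.69, 1.16, 1.11 and 0.98 on the log2 scale in the same order.

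A list of 9 regulators and transporters of foreign compounds showed 4 genes higher and 4 lower in fru330035, 4 and 1 in fruTrip, 3 and 2 in fru105005, and 3 and 5 in fruBOE, against the same background shares. Counts such as 3 and 2 of 9 in fru105005 lie near them. MRP, a transporter of conjugates, stood at 12.9 and 13.1 in control, 17.8 and 17.6 in fru330035, 20.2 and 20.6 in fruTrip, 18.1 and 19.4 in fru105005, and 20.1 and 20.3 in fruBOE. Both control libraries were below the other 8. Its log2 fold change was 0.46 (SE 0.031, adjusted p = 1.25e-08) in fru330035, 0.64 (SE 0.033, adjusted p = 1.87e-06) in fruTrip, 0.50 (SE 0.038, adjusted p = 8.08e-06) in fru105005 and 0.50 (SE 0.033, adjusted p = 4.15e-08) in fruBOE. Mdr49, an efflux transporter of the P-glycoprotein type, rose in all 4 by 1.44, 1.03, 0.38 and 0.65 on the log2 scale, while its relative Mdr50 fell by 3.04 in fru330035, fell by 2.31 in fruBOE and rose by 0.24 in fru105005. The factor gene cnc, the fly Nrf2, a regulator of detoxification genes, fell by 0.47 on the log2 scale in fru330035 and fell by 0.18 in fruBOE, and was at -0.02 (SE 0.030, adjusted p = 0.614) in fruTrip and -0.03 (SE 0.020, adjusted p = 0.257) in fru105005. Other regulators on the list differed from cnc. In fru330035, fruTrip, fru105005 and fruBOE, maf-S was at -0.11, -0.22, -0.39 and -0.27, and called lower in all 4. Keap1 was at -0.46, 0.13, -0.19 and -0.60 in the same order, and called in each. Hr96 was at -0.03, 0.18, -0.10 and -0.35, and Hr38, at 0.18 and 0.21 in control, at 1.54, 0.39, -0.10 and 0.51.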

How the data were processed

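The data are 10 polyadenylated RNA libraries of adult oenocytes, 2 for each of 5 genotypes. The authors trimmed reads with fastp 0.22.0, mapped them with bowtie2 and estimated expression with RSEM 1.2.31. In the deposited count table the authors give RSEM expected counts for each gene, without normalization. A further deposited table holds TPM as computed by RSEM in each library. The deposited TMM table is a signal equal to TPM times a constant per library, from 0.889 to 1.11. The annotation version behind the counts and the use of strand are not given in the sources used here. Expected counts were rounded to whole numbers and each pair of genotypes was fitted with its 4 libraries: filterByExpr (minimum count 10, minimum total 15), TMM, edgeR 4.0.16 glmQLFit and glmQLFTest in R 4.3.3, with Benjamini-Hochberg adjustment over all genes tested. All adjusted p values are from edgeR unless DESeq2 1.42.0 or limma 3.58.1 is named. The SE is the log2 fold change over the square root of F. Expected counts cover 23415354 to 46840820 per library, and no library was left out. Symbols and positions came from the BDGP6.54 annotation, which matched 13983 of 13986 genes.

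The members and all gene lists were chosen with earlier results of these data known. Members named with every library are the 8 highest in control, the DEGs against control, the 3 largest rises and falls in each comparison with control among called members averaging at least 50 counts, and those whose replicates differed by over 1 in log2 CPM in fruTrip or fru105005. Alternatives were DESeq2, library size alone, other count filters, all libraries in 1 fit, the replicate number as a block, limma on log2 of the TMM values plus 1 or 0.1, leaving out each library, and, added after seeing the data, leaving out replicate 2 of fruTrip and fru105005 and the unscaled TPM. The tests were checked on counts simulated for fru330035 and control, with few genes changed and rises and falls balanced. Far more genes were called in the data, so that check does not cover TMM scaling or calls in such a setting.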

Additional observations from a re-analysis of the deposited data

Results flagged for a closer look

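The fold changes of 3 members against control differed in sign among the hairpin lines, and the lines differed from each other when compared without control. Between fru330035 and fruTrip the log2 difference was -1.29 for Ugt36D1, -1.16 for Ugt49B1 and -1.84 for Ugt49C1 (edgeR adjusted p = 1.29e-08, 8.5e-07 and 1.1e-06). Between fru330035 and fru105005 it was -1.12 for Ugt36D1, -1.80 for Ugt49B1 and -1.24 for Ugt49C1 (edgeR adjusted p = 2.5e-09, 8.29e-09 and 3.03e-06). In each of these the 2 libraries of fru330035 lay below control and the 4 of fruTrip and fru105005 above it.

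Ugt37C2 stood on opposite sides of control in fruBOE and in all 3 hairpin lines, a difference that was not tested. It was 1.97 on the log2 scale in fru330035, 2.22 in fruTrip and 0.98 in fru105005, and -1.68 in fruBOE. For Ugt36D1 and Ugt49C1 this held for fru330035 alone, again untested, with fruTrip and fru105005 on the side of fruBOE. Ugt36D1 was -0.71 in fru330035, 0.59 in fruTrip, 0.40 in fru105005 and 0.06 in fruBOE, where the call was lost with any of the 4 libraries left out and in DESeq2. Ugt49C1 was -0.57 in fru330035, 1.27 in fruTrip, 0.64 in fru105005 and 0.33 in fruBOE, where the call was lost without replicate 2 of control and in DESeq2.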

How the results depend on the processing

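Over 96 log2 fold changes of named genes, 90 of them called, 1210 recomputed values gave 1137 with the same direction and call, 54 that lost the threshold, 2 that gained it and 17 that changed sign. With library size alone, fru330035 had 3 DEGs, fruTrip 3 members lower, fru105005 1 DEG, fru330035 against fruTrip 6 higher and 8 lower, and fru330035 against fru105005 8 higher; Ugt316A1 was -0.12 in fruTrip and 0.11 in fru330035 against fruTrip, Ugt37D1 was 0.20 in the latter, and Ugt49B1 was 0.092 in fruBOE. With DESeq2, fru105005 had 1 DEG, fru330035 against fru105005 had 3 members higher, and Ugt37A2 was -0.13 in fruBOE, where without the filter it was -0.0039. With at least 10 counts in every library, or all 10 libraries in 1 fit, fruTrip had 2 members lower and fru105005 1 DEG. With limma and a pseudocount of 1, DEGs were 0 in fru330035, fruTrip and fru105005 and 1 in fruBOE, and Ugt36E1 was -0.0043 in fru330035, Ugt37A2 -0.011 and Ugt49B1 0.042 in fruBOE. With a pseudocount of 0.1, DEGs were 0 in fru330035 and fru105005, and those fold changes were -0.0047, -0.044 and 0.042. The cause was not tested. With 1 library left out, DEGs ran from 1 to 2 in fru330035 (2 without replicate 1 of control or 2 of fru330035), from 1 to 4 in fruTrip (1 without either control library) and from 0 to 3 in fru105005 (0 without replicate 1 of control or of fru105005, 1 without replicate 2 of control). Members higher in fru330035 ran from 1 (without its replicate 2) to 4 (without replicate 2 of fruTrip) against fruTrip, and from 3 (without its replicate 2) to 4 against fru105005. Ugt36E1 ran from -0.0016 to 0.018 in fru330035, and Ugt37A2 from -1.22 to 0.90 in fru330035 and from -1.50 to 1.29 in fruBOE. A lone library was assumed to vary like those of the other group. Members with few counts have wide counting error, which limits what their values can show.

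Libraries of different genotypes share only a replicate number. The correlation of same-numbered deviations over 12062 genes was 0.02, 0.07, 0.13 and 0.09 for the comparisons with control in fru330035, fruTrip, fru105005 and fruBOE, and 0.47 between fruTrip and fru105005. With the replicate number as a block, 10 members rose and 5 fell in fru330035, 14 and 1 in fruTrip, 14 and 2 in fru105005, and 13 and 3 in fruBOE, while DEGs of fru105005 went from 2 to 3.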
